A study of Mus musculus with 16 samples.

Results

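The 43 genes described here encode enzymes that cut or crosslink the extracellular matrix of the heart, inhibitors of the cutting enzymes, and ADAMTS-like proteins. They were every row, among 16118 genes of a table of adult mouse atria and ventricles, named Mmp followed by a number (12 matrix metalloproteinases), Timp1 to Timp4 (4 tissue inhibitors of metalloproteinases), Adamts (17 secreted proteases with thrombospondin repeats, and 5 Adamtsl genes of like build) or Lox and Loxl1 to Loxl4 (5 lysyl oxidases). Polyadenylated RNA was sequenced from the atria and the ventricles of 8 adult male littermates, 4 per genotype, taken 2 weeks after tamoxifen. Every mouse, controls included, was homozygous floxed at Meis1 and at Meis2. In addition, the 4 idKO animals were tg/wt for α-MHC-MerCreMer, a tamoxifen-activated Cre recombinase under a promoter of heart muscle cells, and the 4 control mice were wild type at that transgene. Cre was therefore built to act in cardiomyocytes alone, and since no control carried it, what the active recombinase does by itself cannot be told apart from the deletion. Both genotypes and both chambers made 4 groups of 4 libraries, and each mouse gave 1 atrial and 1 ventricular library, so replicates are separate animals.

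The matrix of the heart is a network of fibrillar collagens, basement membranes, elastic fibres and proteoglycans, made largely by fibroblasts. Matrix metalloproteinases are zinc enzymes that cut collagens and other matrix proteins, either secreted or, as for Mmp14 and Mmp15, held in the cell membrane, and TIMPs bind their active site and block them. ADAMTS proteases cut proteoglycans such as versican (Adamts1, Adamts4, Adamts5, Adamts9) or trim the ends of procollagens (Adamts2, Adamts3, Adamts14), ADAMTS-like proteins lack the protease part and several bind microfibrils, and lysyl oxidases crosslink collagen and elastin. Meis1 and Meis2 encode homeodomain transcription factors of the TALE class.

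Promoters of 25 of the 43 genes were taken from the RefSeq promoter table for build GRCm38.p6. The other members were not searched, and the promoter table is not shown to lack them. The promoters used were each 300 bases, from 250 before the start of the gene to 50 after it. They are printed here for Adamts1, the gene that was higher in idKO ventricles, for Timp4, the inhibitor that was higher in ventricles than in atria, and for Timp2 and Mmp3, an inhibitor and a protease that were higher in atria. Adamts1 lies at chr16:85803064-85803363 and Timp4 at chr6:115252156-115252455, both on the minus strand. Timp2 lies at chr11:118355362-118355661 on the minus strand and Mmp3 at chr9:7445572-7445871 on the plus strand. Sequences run 5′ to 3′ along the gene, and capitals mark the matches to the motifs named after them.
Adamts1: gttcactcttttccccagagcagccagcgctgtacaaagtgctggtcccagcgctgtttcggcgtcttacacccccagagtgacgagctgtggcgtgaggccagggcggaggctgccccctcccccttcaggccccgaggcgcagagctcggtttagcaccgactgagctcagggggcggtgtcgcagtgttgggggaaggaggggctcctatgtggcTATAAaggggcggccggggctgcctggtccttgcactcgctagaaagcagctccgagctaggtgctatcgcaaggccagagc
Timp4: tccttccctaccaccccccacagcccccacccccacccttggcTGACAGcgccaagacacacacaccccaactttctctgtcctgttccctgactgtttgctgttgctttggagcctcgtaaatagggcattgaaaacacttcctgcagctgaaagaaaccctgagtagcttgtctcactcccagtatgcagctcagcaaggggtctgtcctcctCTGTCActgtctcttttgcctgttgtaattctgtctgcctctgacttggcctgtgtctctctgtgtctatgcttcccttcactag
Timp2: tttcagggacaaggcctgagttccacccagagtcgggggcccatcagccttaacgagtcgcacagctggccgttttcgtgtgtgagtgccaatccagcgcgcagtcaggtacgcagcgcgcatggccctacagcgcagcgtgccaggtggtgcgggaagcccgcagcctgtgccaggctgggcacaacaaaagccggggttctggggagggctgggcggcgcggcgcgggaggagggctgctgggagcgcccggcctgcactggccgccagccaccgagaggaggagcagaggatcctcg
Mmp3: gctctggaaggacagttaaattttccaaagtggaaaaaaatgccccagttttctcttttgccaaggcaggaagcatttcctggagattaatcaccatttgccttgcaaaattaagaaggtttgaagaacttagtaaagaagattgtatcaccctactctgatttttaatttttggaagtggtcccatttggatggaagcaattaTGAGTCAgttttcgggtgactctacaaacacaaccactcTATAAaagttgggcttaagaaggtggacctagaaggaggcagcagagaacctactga
The hexamer TGACAG, the core that MEIS proteins are known to bind, was searched on both strands (as TGACAG or CTGTCA). It was found in 19.2% of all 32851 promoters and in 6 of the 25 (Adamts12, Adamts20, Adamtsl2, Adamtsl5, Mmp23 and Timp4). Timp4 held it at 207 and at 35 bases before the start. The AP-1 heptamer TGANTCA, which reads the same on both strands, was found in 7.81% of all promoters and in Mmp3 (46 bases before the start) and Mmp12. The letters TATAA on the gene's own strand were found in 17.5% of all promoters and in 6 of the 25, among them Adamts1 at 32 bases before the start. The Timp2 window held none of the 3 motifs. Shares of all promoters count windows, whereas a member was counted when any of its windows matched, and some genes, such as Mmp23, have several windows. The member counts and these shares are therefore not in the same unit. A match describes the letters in the window and is not evidence of binding.

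Values are normalised read counts, that is counts-per-million of the authors' effective library size. Recovered reads ran from 13.1 to 21.8 M (mega) per library. The targeted gene Meis2 stood at 26.8 ± 4.25 in control ventricles and at 8.82 ± 0.849 after deletion (SD, n = 4; log2 difference -1.49, limma adjusted p = 1.96e-05), and Meis1 at 27.3 ± 0.767 and 23.1 ± 2.29 (limma adjusted p = 0.236). In atria neither was called. Meis2 measured 19.96 ± 1.48 in control atria and 17.7 ± 1.64 in idKO atria (log2 difference -0.16, limma adjusted p = 0.966). Counts over a whole gene need not show the loss of a floxed exon. A loss in atria is therefore not shown by these counts, and the extent of deletion there was not tested. The 4 atrial muscle markers Myl7, Myl4, Sln and Nppa summed to 32910 to 42020 in atria, 192 to 235 in ventricles of controls and 495 to 1664 in those of idKO mice, where Nppa was the 1 called higher. The ventricular markers Myl2, Myl3, Myh7 and Irx4 summed to 14770 to 18170 in ventricles and 154 to 1589 in atria, and Irx4 was called lower in idKO ventricles and differed in the interaction. The sum of 12 fibroblast markers was 4031 in idKO ventricle replicate 2, against 2594 to 3037 in the other idKO ventricles and 2474 to 2839 in control ventricles. In these whole-tissue samples fewer cells of a type and less RNA per cell cannot be told apart.

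Levels of different genes were compared per kilobase of exon. Averaged over the 16 libraries, Timp3 (68.6 per kilobase) and Timp2 (59.5) stood highest, as they did in each group. Next in that average came the proteases Mmp15 (23.9), which is anchored in the cell membrane, and Mmp2 (21.2), the secreted gelatinase A. Adamtsl4 (20.9), Adamtsl5 (19.3) and Loxl1 (13.2), a lysyl oxidase that acts on elastin, followed, then Timp4 (8.36), Adamts1 (8.30), Timp1 (6.396), Mmp23 (5.21) and Adamts10 (5.17). The order below Timp2 differed between chambers, with Adamtsl4 (27.3) next to Timp2 in control atria and Adamtsl5 (25.3) in control ventricles. The summed Timp level per kilobase divided by the summed Mmp level was above 1 in every library. In atria it was 2.44 ± 0.113 for controls and 2.59 ± 0.146 for idKO mice, and in ventricles 1.66 ± 0.175 and 1.76 ± 0.0733 (SD, n = 4). The lowest atrial ratio was 2.34 and the highest ventricular ratio 1.85, so that the chambers did not overlap, while the ranges of the genotypes overlapped within each chamber. Mmp15 and Mmp2 made up 34.8% and 30.5% of the Mmp sum in control atria, and 44.0% and 30.8% in control ventricles.

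The ventricle comparison asked which of these transcripts differed after the deletion in ventricular muscle. Adamts1, a secreted protease that cuts versican and other proteoglycans, rose, and Adamts7, a secreted protease known to cut cartilage oligomeric matrix protein, fell. The other 31 of the 33 members tested were not called. Among all 13144 genes tested, 0.533% were called higher and 1.5% lower (limma, adjusted p under 0.05), against 1 member in each direction. With values rescaled to the sum over all genes, 154 genes (1.17%) were higher and 108 (0.822%) lower, so the balance of directions over all genes depends on the scaling.

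Adamts1 (chromosome 16, 85793827 to 85803113, build GRCm38) measured 31.65, 34.05, 30.43 and 43.99 in the 4 control ventricles and 48.5, 59.4, 59.5 and 56.6 in the 4 idKO ventricles. Each idKO library lay above each control, and the means were 35.0 ± 6.16 and 56.0 ± 5.21, a 1.60-fold difference (log2 difference 0.67 ± 0.11 SE, limma adjusted p = 0.00698). Adamts7 (chromosome 9, 90163069 to 90208071) measured 37.0, 41.5, 47.5 and 44.8 in controls and 31.4, 29.9, 26.5 and 25.1 in idKO ventricles. Each idKO library lay below each control, and the idKO mean of 28.2 ± 2.91 was 66.1% of the control mean of 42.7 ± 4.51 (log2 difference -0.58 ± 0.10 SE, limma adjusted p = 0.00823). Without a trended prior neither gene passed (limma adjusted p = 0.0576 for Adamts1 and 0.0504 for Adamts7), and with values rescaled to the sum over all genes Adamts7 did not (adjusted p = 0.0514). Without idKO ventricle replicate 2 both were called (limma adjusted p = 0.0279 and 0.0182).

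**Figure D1:**
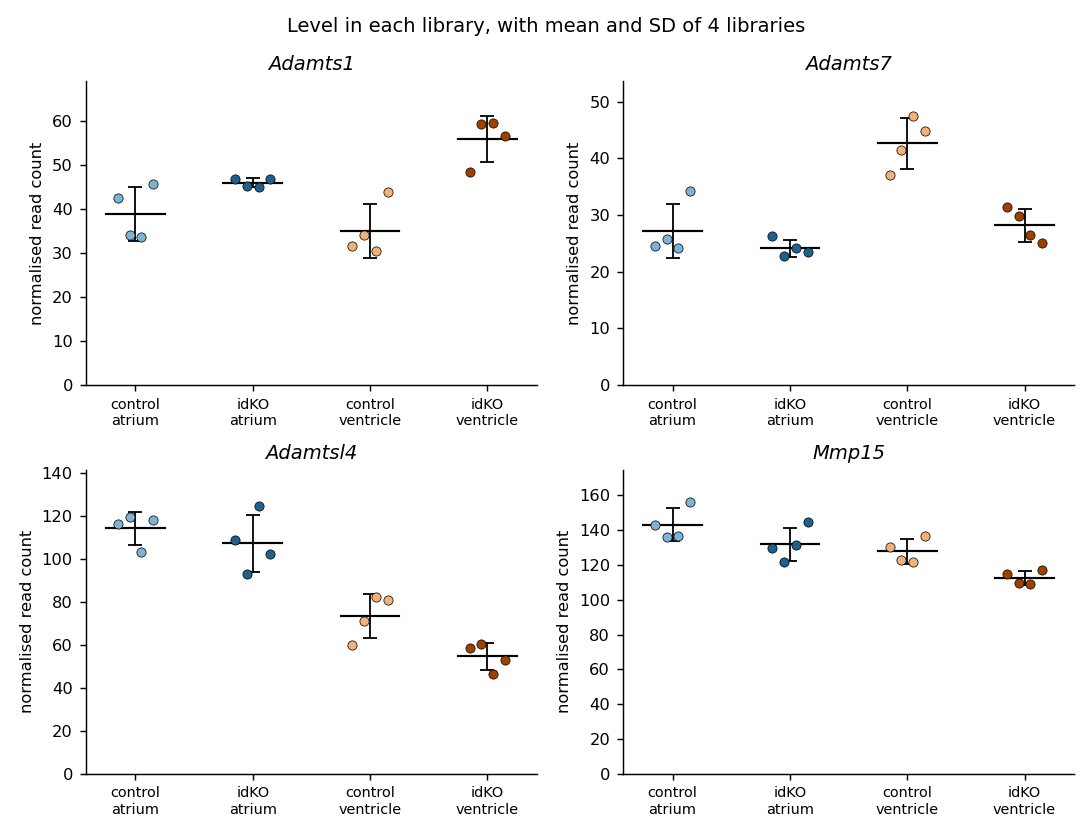
Normalised read count of Adamts1, Adamts7, Adamtsl4 and Mmp15 in each library of the 4 groups (points), with the mean (line) and SD of 4 libraries (bar). For Adamts1 the idKO ventricles (48.5 to 59.5) lie above all control ventricles (30.43 to 43.99), and for Adamts7 they lie below them (25.1 to 31.4 against 37.0 to 47.5).

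Groups did not overlap for 1 further member, Mmp15, and over all genes tested in ventricles 8.99% did not overlap. Mmp15 measured 130.5, 122.6, 121.6 and 136.7 in control ventricles and 114.7, 109.9, 108.9 and 117.4 in idKO ventricles (log2 difference -0.18 ± 0.06 SE, limma adjusted p = 0.182). The idKO libraries were thus all lower by a small amount, and the gene was not called. Adamtsl4, which binds fibrillin microfibrils, measured 60.2, 71.0, 82.5 and 80.9 in controls and 58.7, 60.4, 46.4 and 53.1 in idKO ventricles (log2 difference -0.42 ± 0.11 SE, limma adjusted p = 0.0706). The highest idKO library lay just above the lowest control, so the groups overlapped by that pair. Adamtsl4 was called by DESeq2 on the recovered reads (adjusted p = 0.0161), in the fit of all 16 libraries (limma adjusted p = 0.0420) and without control ventricle replicate 1. Adamts5, the neighbour of Adamts1 and an aggrecan- and versican-cutting protease, had a log2 difference of -0.21 (95% CI -0.42 to -0.01, limma adjusted p = 0.309).

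The inhibitors and crosslinkers were not called in ventricles. Timp1, Timp2, Timp3 and Timp4 had log2 differences of 0.51 (95% CI -0.10 to 1.13), 0.13 (-0.12 to 0.37), 0.12 (-0.12 to 0.36) and 0.08 (-0.31 to 0.46). Lox, Loxl1, Loxl2 and Loxl3 had log2 differences of 0.03 (95% CI -0.38 to 0.44), 0.22 (-0.11 to 0.56), 0.01 (-0.33 to 0.35) and 0.30 (-0.16 to 0.76), and Loxl4 was too low to test. Among the metalloproteinases, log2 differences ran from -0.22 (Mmp14) to 0.33 (Mmp17), and Mmp2 stood at 0.22 (95% CI -0.15 to 0.59). Of the 33 members tested, 26 had positive differences, against 48% of all genes, and the median was 0.147 against -0.01. An unadjusted p under 0.05 was reached by 7 of the 33, against 15% of all genes.

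**Figure D2:**
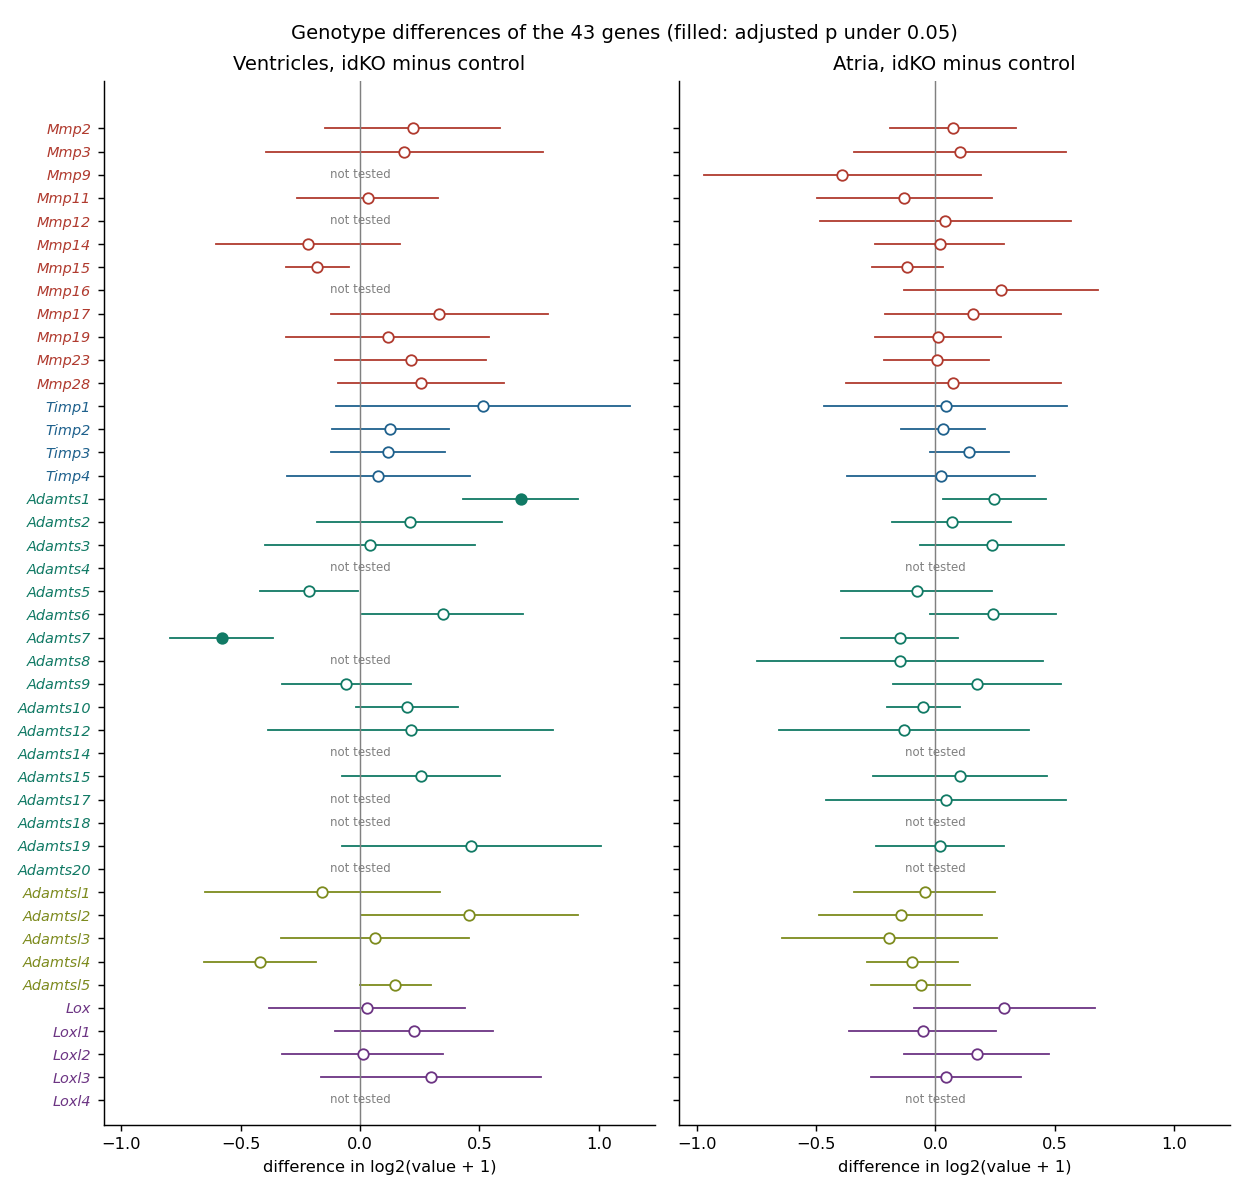
Difference in log2(value + 1) between idKO and control libraries for each of the 43 genes, in ventricles (left) and atria (right), with 95% confidence intervals as lines and colours for the gene families. Filled points passed an adjusted p under 0.05, which are Adamts1 (0.67) and Adamts7 (-0.58) in ventricles and none in atria.

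The positive median moved with 1 library. The library idKO ventricle replicate 2 was the highest of its group for 20 of the 33 members and the lowest for 2, and without it the median over the members tested was 0.05. Loxl1 measured 36.31, 33.98, 26.01 and 26.32 in control ventricles and 32.4, 50.1, 32.6 and 30.2 in idKO ventricles, so that replicate 2 lay above the control range and the other 3 inside it. Its log2 difference was 0.22 with that library and 0.06 without it. Mmp2 measured 60.0, 50.8, 57.8 and 54.8 in controls and 76.4, 94.2, 53.3 and 46.8 in idKO ventricles, with 2 idKO libraries above the control range, 1 inside it and 1 below it, and its log2 difference was 0.05 without replicate 2. The fibroblast marker sum, given above, was highest in the same library, and its part in these differences was not tested. For Adamts1 that library (59.4) did not stand apart from replicates 3 and 4 (59.5 and 56.6).

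**Figure D3:**
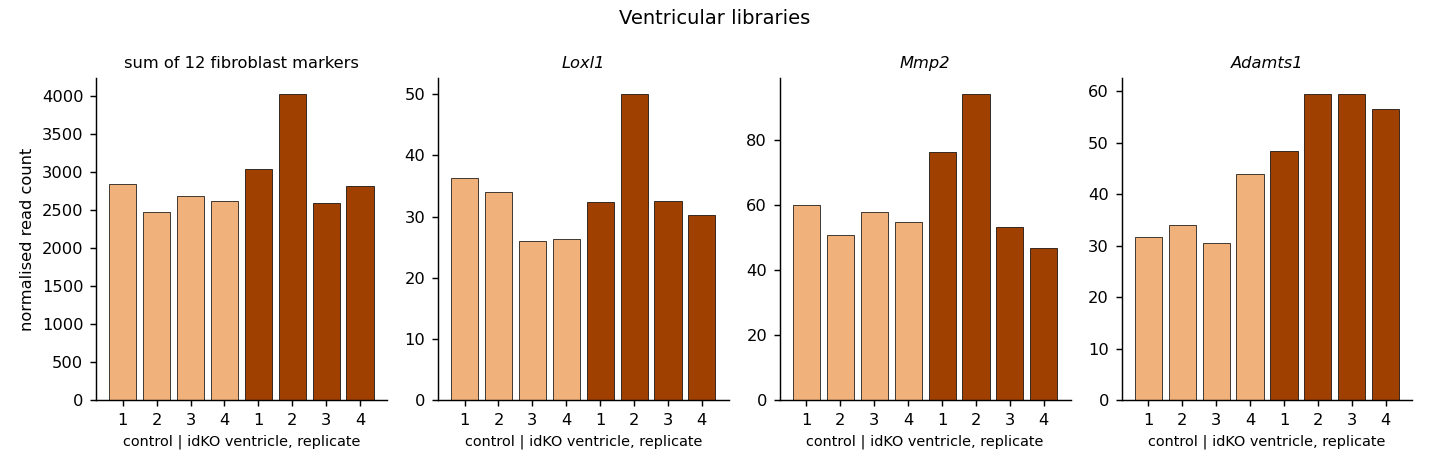
Sum of 12 fibroblast markers and the levels of Loxl1, Mmp2 and Adamts1 in each ventricular library (bars, normalised read count; light, control; dark, idKO). The fibroblast sum (4031), Loxl1 (50.1) and Mmp2 (94.2) are highest in idKO replicate 2, while Adamts1 lies at 48.5 to 59.5 in all 4 idKO libraries.

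Other cell markers also differed between the ventricular groups in which Adamts1 rose and Adamts7 fell. The sum of 6 general cardiomyocyte markers was 87760 to 92750 in controls and 74770 to 86750 in idKO mice, with Ryr2 called lower. The sum of 8 macrophage markers was 364 to 380 in controls and 406 to 498 in idKO mice, with Lyz2 called higher, and that of 7 mesothelial markers 27.7 to 37.4 and 10.6 to 29.6, with Msln called lower. Endothelial markers summed to 1646 to 1720 and 1607 to 1762, with 0 of 10 called. In neither ventricular group was a marker of these 4 lists at 0 reads in all 4 libraries, and the part of these markers in the results was not tested.

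In atria 0 of 38 members tested were called by limma, and 0 had groups that did not overlap, against 0.0207% of all genes called and 2.82% without overlap. For 1 member, Adamts1, an unadjusted p under 0.05 was reached, against 4.61% of all genes, and DESeq2 and edgeR on the recovered reads also called 0. Adamts1 measured 42.4, 34.1, 33.6 and 45.8 in control atria and 46.9, 45.3, 45.0 and 46.9 in idKO atria (log2 difference 0.25, 95% CI 0.03 to 0.46, limma adjusted p = 0.966). The idKO atria lay close together, 2 of them inside the upper part of the control range and 2 just above it. Adamts7 measured 24.5, 25.7, 24.2 and 34.3 in control atria and 26.3, 22.7, 24.2 and 23.6 in idKO atria (log2 difference -0.15, 95% CI -0.39 to 0.09). Log2 differences of all members ran from -0.39 (Mmp9, the secreted gelatinase B) to 0.29 (Lox), with a median of 0.0273. Timp2 and Timp3, the most abundant members, had log2 differences of 0.03 (95% CI -0.15 to 0.21) and 0.14 (-0.02 to 0.31). Adamts6, Adamts3 and Mmp15 had log2 differences of 0.24 (95% CI -0.02 to 0.51), 0.24 (-0.06 to 0.54) and -0.12 (-0.27 to 0.03), each with limma adjusted p = 0.966.

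Whether the genotype effect differed between chambers was tested as an interaction, in which 0.296% of all genes and 0 of 39 members were called by limma. DESeq2 and edgeR on the recovered reads also called 0, and 3 members had an unadjusted p under 0.05, against 6.54% of all genes. For Adamts1 the effect in atria minus that in ventricles was -0.43 on the log2 scale (95% CI -0.76 to -0.09, limma adjusted p = 0.605). For Adamts7 it was 0.43 (0.11 to 0.75, limma adjusted p = 0.578). With the mouse as a block, limma adjusted p was 0.128 for Adamts1 and 0.191 for Adamts7, and neither was called. The ventricular calls of Adamts1 and Adamts7 are therefore not shown to be particular to ventricles.

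The chambers differed far more than the genotypes. Of 39 members tested in control mice, 24 were higher in atria and 6 were higher in ventricles, against 28.2% and 28.7% of all 14871 genes tested. In idKO mice 21 were higher in atria and 5 in ventricles, against 26.8% and 27.1% of all genes. The median difference was 0.637 in control mice and 0.538 in idKO mice on the log2 scale, against 0.02 for all genes in each. Atria and ventricles did not overlap for 27 members in control mice and 20 in idKO mice, against 50.7% and 47.2% of all genes. Of the 39 members, 5 passed the filter on low values in atria and not in ventricles, which tilts such counts toward atria. Among the 33 that also passed in ventricles, 21 were higher in control atria and 6 in control ventricles, and 18 and 5 in idKO mice, and no count stands for all 43. Over all 12 fibroblast markers, 12 were higher in control atria, with sums of 4439 to 6170 against 2474 to 2839 in control ventricles. In the same libraries the sum of 6 endocardial markers was 582 to 703 against at most 149, that of mesothelial markers 306 to 413 against 27.7 to 37.4, and that of general cardiomyocyte markers 63960 to 74970 against 87760 to 92750. The part of these markers in the chamber differences was not tested.

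Of the 4 inhibitors, 3 were higher in control atria and 1 was higher in control ventricles, against 28.2% and 28.7% of all genes. Timp2 (chromosome 11, 118301069 to 118355740), which both inhibits metalloproteinases and takes part in the activation of Mmp2 by Mmp14, measured 361, 306, 338 and 322 in control atria and 123.7, 112.3, 118.5 and 128.6 in control ventricles. The groups were far apart, 2.75-fold by their means (log2 difference 1.45 ± 0.11 SE, limma adjusted p = 1.29e-09). Timp3 (chromosome 10, 86300372 to 86349506), the inhibitor that stays bound to the matrix, measured 674, 644, 775 and 775 in control atria and 297, 332, 347 and 419 in control ventricles (log2 difference 1.04 ± 0.10 SE, limma adjusted p = 7.11e-08). Timp1 measured 9.94, 11.4, 5.89 and 5.82 in control atria and 3.55, 3.11, 1.06 and 1.59 in control ventricles (log2 difference 1.499 ± 0.28 SE, limma adjusted p = 1.66e-04). Again no ventricle reached the lowest atrium, while 50.7% of all genes did not overlap between control chambers.

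Timp4 (chromosome 6, 115241892 to 115252205), the inhibitor known for its high level in heart, went the other way. It measured 13.8, 23.9, 27.9 and 18.4 in control atria and 51.7, 86.1, 84.2 and 80.0 in control ventricles, 3.597-fold higher on average in ventricles (log2 difference -1.82 ± 0.20 SE, limma adjusted p = 3.08e-07). In idKO mice it measured 24.9, 18.7, 18.9 and 20.7 in atria and 88.8, 102.8, 58.0 and 69.8 in ventricles (log2 difference -1.87 ± 0.20 SE, limma adjusted p = 2.29e-07). Of the summed Timp level per kilobase, Timp4 made up 1.92% ± 0.569 in control atria and 14.3% ± 2.68 in control ventricles, and 1.795% ± 0.289 and 13.6% ± 1.16 in the idKO chambers (SD, n = 4). Timp3 stayed near 47.3% in control atria and 47.8% in control ventricles, and Timp2 made up 45.8% and 34.9%. The 3 atria with ventricular marker sums of 1518, 1589 and 1555 had Timp4 at 23.9, 18.9 and 20.7, inside the range of the other atria (13.8 to 27.9). That range is wide, and the part of these markers in the atrial level of Timp4 was not tested.

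**Figure D4:**
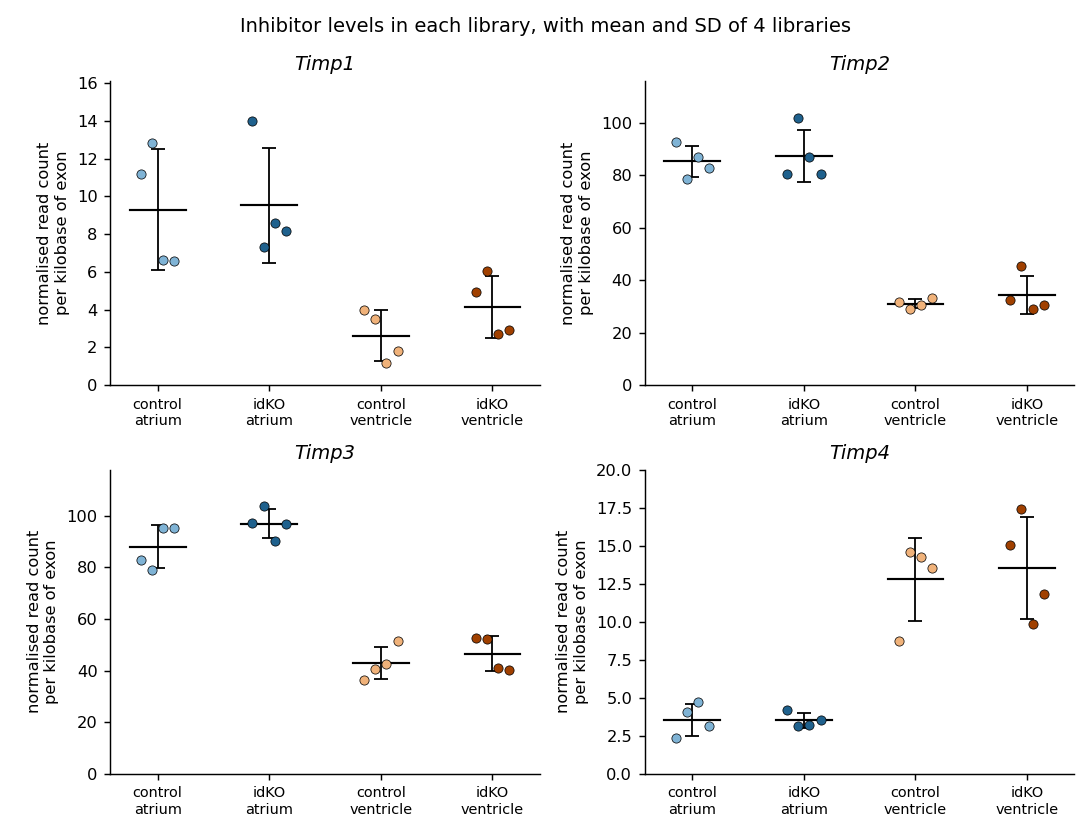
Level per kilobase of exon of the 4 inhibitors in each library of the 4 groups (points; normalised read count divided by exon length), with mean (line) and SD of 4 libraries (bar). Timp1, Timp2 and Timp3 are higher in atria and Timp4 in ventricles, in control and in idKO mice, and the scale of the axes differs between genes.

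Timp1, Timp3 and Timp4 each lie inside a synapsin gene on the opposite strand (Syn1, Syn3 and Syn2). The labels do not say whether the reads keep their strand, so reads of such pairs could be mixed. Exons overlap for 21.3% of the exon length of Timp3 and 1.53% of that of Timp4, and not for Timp1. Syn1 measured 2.65 ± 0.972 in control atria and 0.266 ± 0.127 in control ventricles, the same direction as Timp1. Syn2 measured 26.9 ± 5.81 in control atria and 2.79 ± 1.45 in control ventricles, the opposite direction to Timp4, and Syn3 measured 4.30 ± 2.62 and 3.08 ± 1.41, far below Timp3.

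Of 12 metalloproteinases, 9 were higher in control atria and 0 in control ventricles, against 28.2% and 28.7% of all genes. Of the 9, Mmp9 and Mmp16 had passed the filter through atria alone. Mmp3, the secreted protease stromelysin 1, measured 16.43, 11.62, 10.55 and 9.195 in control atria and 6.17, 5.51, 1.96 and 2.58 in control ventricles (log2 difference 1.43 ± 0.26 SE, limma adjusted p = 1.21e-04). Mmp23, a protease with an unusual membrane anchor at its start, measured 16.43, 15.56, 15.98 and 17.73 in atria and 7.64, 7.30, 7.09 and 6.82 in ventricles (log2 difference 1.08 ± 0.12 SE, limma adjusted p = 3.65e-07). Both sets were separate, as were those of 50.7% of all genes, and Mmp23 varied less within a group than Mmp3. The abundant Mmp15 and Mmp2 differed less between control chambers, by 0.16 and 0.48 on the log2 scale (limma adjusted p = 0.0356 and 0.0198). The call of Mmp15 was lost when control atrium replicate 1 or 4 or control ventricle replicate 2 or 3 was left out and with a prior without a trend, and that of Mmp2 without control ventricle replicate 2. Mmp11, Mmp12 and Mmp17 were not called. Exons of Adamts8 overlap the antisense gene Gm29724 over 10.6% of their length, those of Adamts9 overlap A730049H05Rik over 9.18%, and those of Mmp19 overlap Tmem198b, all on the opposite strand, over 22.3%. Tmem198b measured 17.7 in control atria and 9.02 in control ventricles, above Mmp19 (8.62 and 4.75) and in the same direction, so the call of Mmp19 is uncertain. Exons of Loxl3 overlap Htra2 over 11.6%, and Htra2 measured 23.9 and 28.8, the opposite direction to Loxl3.

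Among the 13 Adamts genes tested, 7 were higher in control atria and 3 in control ventricles, against 28.2% and 28.7% of all genes. Adamts8 (chromosome 9, 30942562 to 30963838), an antiangiogenic protease whose gene passed the filter through atria alone, measured 34.9, 52.7, 30.7 and 24.0 in control atria. In control ventricles it measured 0.776, 0.787, 0.754 and 0.318, from 4 to 10 reads a library, so that the level was 54.0-fold higher in atria on average (log2 difference 4.42 ± 0.26 SE, limma adjusted p = 3.91e-11). In idKO mice it measured 18.6, 51.1, 34.2 and 27.1 in atria and 1.48, 0.635, 1.32 and 1.07 in ventricles, a 29.0-fold difference of means. Atria varied by over 2-fold within a group, and every atrium lay far above every ventricle. Adamts19 measured 20.1, 19.9, 19.6 and 14.4 in control atria and 1.76, 0.936, 1.76 and 2.37 in control ventricles (log2 difference 2.87 ± 0.20 SE, limma adjusted p = 4.67e-10), a 10.9-fold difference of means. Adamts15 lies 20.1 kilobases from Adamts8, on the opposite strand with no coding gene between them, and measured 18.0 ± 3.51 in control atria and 9.08 ± 1.62 in control ventricles (log2 difference 0.91). The neighbours thus had the same direction and different sizes of difference.

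Of the Adamts proteases, 3 were higher in control ventricles. Adamts9, a versican-cutting protease, measured 11.6, 11.3, 9.70 and 9.65 in control atria and 20.9, 22.5, 18.2 and 26.4 in control ventricles (log2 difference -0.98 ± 0.15 SE, limma adjusted p = 1.79e-05). Adamts7 had a log2 difference of -0.64 (limma adjusted p = 5.15e-05) and Adamts5 of -0.39 (0.0148), the latter not called without control atrium replicate 2 or 4 or control ventricle replicate 3. Adamts1 and Adamts5 lie 53.1 kilobases apart on chromosome 16, on the same strand and with no coding gene between them. Adamts1 did not pass between control chambers (log2 difference 0.15, limma adjusted p = 0.265). Among the procollagen-trimming genes, Adamts2 and Adamts3 were higher in control atria by 0.90 and 0.63 on the log2 scale (limma adjusted p = 1.54e-04 and 0.0056).

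Of the 5 ADAMTS-like genes, 3 were higher in control atria and 1 in control ventricles, against 28.2% and 28.7% of all genes. Adamtsl1 measured 9.24 ± 0.742 in control atria and 1.80 ± 0.544 in control ventricles (log2 difference 1.89), and Adamtsl2, a microfibril-binding protein of the TGF-β pathway, 33.0 ± 5.78 and 13.1 ± 4.84 (log2 difference 1.31). Adamtsl4 was higher in atria by 0.64. Adamtsl5 (chromosome 10, 80339110 to 80348412), which also binds microfibrils, measured 60.1, 66.3, 50.1 and 55.2 in control atria and 119.9, 127.2, 117.3 and 113.5 in control ventricles. Its ventricles lay in a narrow range, 2.06-fold above the atria on average (log2 difference -1.04 ± 0.09 SE, limma adjusted p = 5.08e-09).

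Among the lysyl oxidases, Loxl1 and Loxl3 were higher in control atria and Loxl2 in control ventricles. Loxl1 measured 64.7, 62.9, 49.3 and 41.1 in control atria and 36.31, 33.98, 26.01 and 26.32 in control ventricles (log2 difference 0.80 ± 0.16 SE, limma adjusted p = 3.85e-04). Loxl2, which crosslinks collagen IV of basement membranes, measured 14.4, 12.6, 9.77 and 10.9 in atria and 22.1, 20.9, 19.5 and 14.2 in ventricles (log2 difference -0.64 ± 0.16 SE, limma adjusted p = 0.00198). The atrial and ventricular ranges of Loxl2 touched, since the lowest ventricle lay below the highest atrium. Lox itself, the founding member, had a log2 difference of 0.11 (95% CI -0.28 to 0.50). Per kilobase, Loxl1 made up 74.3% ± 2.81 of the family's sum in control atria and 60.6% ± 1.95 in control ventricles, and Loxl2 10.04% ± 1.19 and 23.2% ± 2.74 (SD, n = 4).

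The 24 members called between chambers in both genotypes all had the same direction. They are 80.0% of the 30 called in control mice and 92.3% of the 26 called in idKO mice. Such sharing was not counted over all genes, so it is not shown to be particular to these members. Among the 24, Adamts8 and Mmp16 had passed the filter on low values through atria alone, which tilts such counts toward atria. Of all genes, 28.2% were higher in control atria and 28.7% in control ventricles, and 26.8% and 27.1% in the idKO chambers. Adamts5, Adamts7, Loxl3, Mmp2, Mmp9 and Mmp28 were called in control mice and not in idKO mice, and Adamts1 and Adamts17 in idKO mice and not in control mice. Mmp9 and Adamts17 had likewise passed the filter through atria alone. With the mouse as a block, Adamts5 (limma adjusted p = 0.0325) and Mmp2 (0.00154) were called in idKO mice as well. Loxl3 had limma adjusted p = 0.0532 in idKO mice and was called there in 8 of 25 alternatives, DESeq2 and edgeR among them. None of the 8 genes called in a single genotype passed the interaction test, so the chamber differences are not shown to differ between genotypes. Adamts1 was higher in idKO ventricles than in idKO atria (log2 difference -0.27, limma adjusted p = 0.0464), and this call was lost in 12 of 25 alternatives, among them rescaling to the sum over all genes and leaving out any of the 4 idKO atria or idKO ventricle replicate 2, 3 or 4. Adamts7 measured 24.2 ± 1.51 in idKO atria and 28.2 ± 2.91 in idKO ventricles (log2 difference -0.21, limma adjusted p = 0.109). Without idKO ventricle replicate 2, Mmp2 was called higher in idKO atria (limma adjusted p = 0.00786), and Loxl2, called at -0.47 with all libraries, was not (0.0628).

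**Figure D5:**
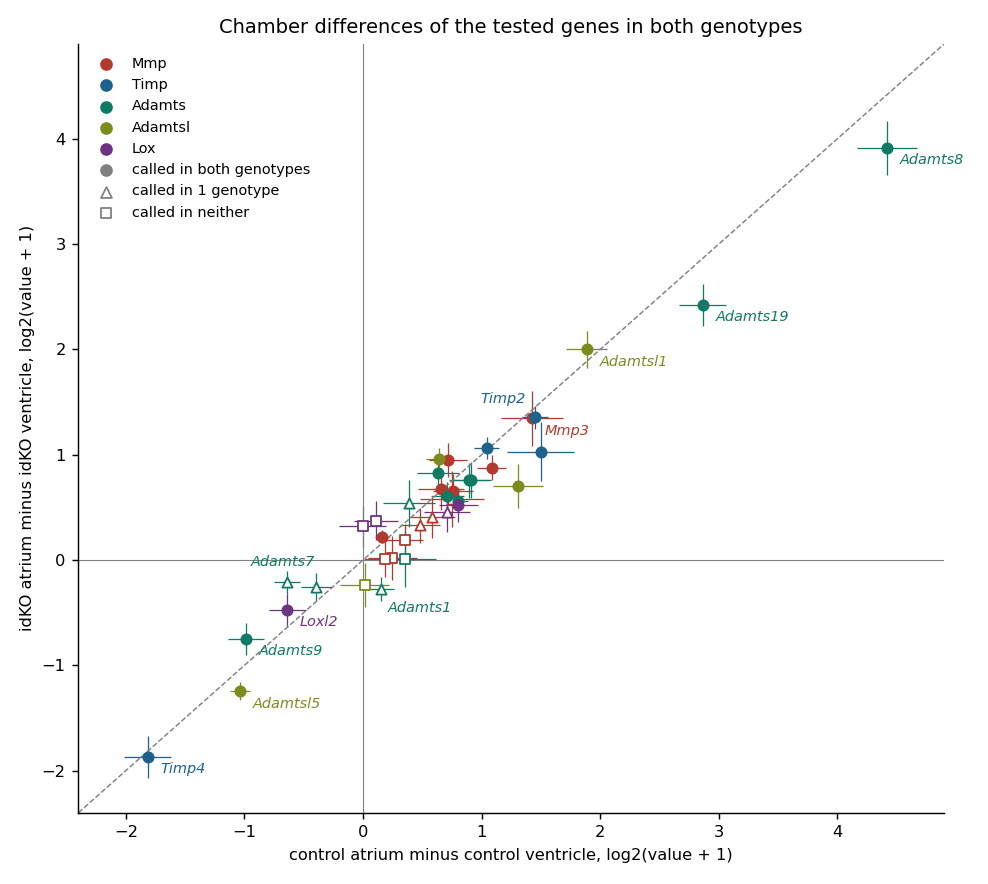
Atrium minus ventricle difference in log2(value + 1) in control mice (horizontal axis) and in idKO mice (vertical axis) for the 39 tested genes, with bars of 1 SE and a dashed line of equal difference. Adamts8 (4.42 and 3.91) and Timp4 (-1.82 and -1.87) mark the ends in both genotypes.

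Directions between chambers depend on the scaling for genes near 0. The authors' scaling sets the median gene of the control chambers to 0.0169, and scaling to the sum over all genes moves it to 0.506. The members' median then was 1.04, with 32 higher in atria and 3 higher in ventricles, and 28 and 2 in idKO mice. Over all genes, 66.4% were then higher in control atria and 9.33% in control ventricles, and 62.2% and 10.4% in the idKO chambers, so the shift toward atria was shared by genes at large. Timp4 (-1.26), Adamtsl5 (-0.48) and Adamts9 (-0.44) remained higher in control ventricles, Adamts7 (-0.09) and Loxl2 (-0.10) were no longer called, and Adamts5 turned to 0.16. In idKO mice Timp4 (-1.39) and Adamtsl5 (-0.77) stayed higher in ventricles, Adamts9 (-0.29) and Loxl2 (-0.02) were not called, and Adamts1 (0.20), Adamts5 (0.21) and Adamts7 (0.25) changed sign. Adamts1 between control chambers stood at 0.70 on that scale and was called.

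Other genes of matrix turnover were counted in lists chosen with earlier results of these data known. Over all genes, 0.533% were called higher and 1.5% lower in idKO ventricles. In ventricles 0 of 25 tested matrix substrates (collagens, elastin, fibrillins and proteoglycans) and 0 of 15 collagen-processing genes were called between genotypes, with medians of 0.149 and 0.0687. Of 14 protease activators and surface regulators, 1 was lower. This was Tgm2, the tissue transglutaminase that also crosslinks matrix proteins, with 380 ± 26.2 in control and 247 ± 23.7 in idKO ventricles (log2 difference -0.62 ± 0.07 SE, limma adjusted p = 6.26e-04). In atria it measured 445 ± 44.7 and 458 ± 11.8, and the effect differed between chambers by 0.67 (limma adjusted p = 0.00448). Of 9 membrane-bound ADAM proteases, Adam19 rose in ventricles from 22.6 ± 2.94 to 41.6 ± 2.02 (log2 difference 0.86 ± 0.10 SE, limma adjusted p = 3.53e-04). Adam11, a member known to lack protease activity, fell from 17.4 ± 1.12 to 10.05 ± 0.813 (log2 difference -0.74 ± 0.11 SE, limma adjusted p = 0.00229). In atria limma called 0 members of the 4 lists, against 0.0207% of all genes. Between control chambers 14 of 27 matrix substrates were higher in atria, among them Col1a1, Eln and Vcan, and 4 were higher in ventricles, the basement membrane genes Col4a1, Col4a2, Hspg2 and Lama2, against 28.2% and 28.7% of all genes.

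Adamts4, Adamts14, Adamts18 and Adamts20 were tested in no comparison. Adamts4 gave 0 to 6 reads a library, Adamts18 0 to 5, Adamts20 0 to 12 and Adamts14 5 to 23, over all 16 libraries. Loxl4 gave 5 to 28 reads and was tested in the 16-library fits alone. Loxl4 was called in 1 setting, between idKO chambers with values rescaled to the sum over all genes. Reads this few leave all but large differences undetectable, and the 4 untested genes are not shown to be silent.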

How the data were processed

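Single reads were made from polyadenylated RNA, per the labels' protocols. Cutadapt, RSEM 1.3.1 and build GRCm38 are named in the submitters' processing notes, while the scaling tool is not given in the sources used here. Values as deposited are a normalised signal: (whole reads + 0.5) divided by an effective library size, in counts-per-million, and whole reads were recovered within 0.01. The effective size averaged 0.947 and 0.958 (atria of control and idKO mice) and 0.639 and 0.687 (ventricles) of the recovered reads, so a value is not a share of the library. Since the table holds scaled values, limma 3.58.1 (R 4.3.3) was run on log2(value + 1), which understates the change of low genes, with a trended prior. It was two-sided, with Benjamini-Hochberg adjustment over all genes tested and calls at adjusted p under 0.05. Genes entered a fit when 4 or more of its libraries had 1 CPM or more of their column sum. Genotypes were fitted on the 8 libraries of a chamber, and the interaction and chambers on all 16. Errors are SDs over 4 mice or standard errors of the fit. The members, the lists and the rule for named genes were chosen with earlier results of these data known. Named with values were members called for genotype, the 5 smallest p in each genotype fit, all Timp and Lox genes, the 12 highest per kilobase, and up to 8 chamber calls each way. The 14 marker lists were summed per library. Mouse numbers pair atrium and ventricle, which came from the same animal; their deviations correlated at 0.188 to 0.325, and 8 of 8 mice correlated best with themselves. Replicates differed by more than sampling noise (mean chi-square per gene 7.77 to 16.1). Alternatives were the pseudocount, filter, scaling, prior, DESeq2 1.42.0 and edgeR 4.0.16 on recovered reads, a joint fit, a mouse block, and each library left out. Scripts were tested on simulated data. Positions are from GENCODE for GRCm38, and lengths are the union of a gene's exons.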

Additional observations from a re-analysis of the deposited data

Results flagged for a closer look

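In 8 of 104 groups of 4 libraries, over 26 named members, 1 library stood apart from the other 3 by more than Dixon's 95% critical value allows. Chance gives about 1 in 20. In control atria, replicate 4 was lowest for Adamts19 at 14.4 (next 19.6) and highest for Adamts7 at 34.3 (next 25.7). In idKO atria, Adamts19 was highest in replicate 3 at 21.9 (next 17.9), and Loxl4 was lowest in replicate 1 at 0.663 (next 1.43). Adamts8 was lowest in control ventricle replicate 4 at 0.318 (next 0.754). In idKO ventricles Adamtsl5 was highest in replicate 3 at 149.0 (next 129). Loxl1 at 50.1 (next 32.6) and Mmp23 at 11.6 (next 7.76) were highest in idKO ventricle replicate 2, the library with the highest fibroblast marker sum.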

How the results depend on the processing

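In ventricles 2 members were called; 1 was called (Adamts1) with values rescaled to the sum over all genes, and 0 with a prior without a trend. With 1 library left out in turn the count was 2 to 3. In atria and in the interaction 0 members were called under every alternative run, the interaction with the mouse as a replicate block among them (0 members). With that block, which follows from the pairing of chambers in a mouse, 30 members were called between control chambers and 27 between idKO chambers, Adamts5 and Mmp2 being among those called in the latter, and the interaction over all genes gave 102 calls instead of 44. The share of all genes called between chambers with that block is not given here, so the member counts are not shown to be particular to them. Leaving out 1 library gave 27 to 31 members between control chambers and 23 to 27 between idKO chambers. Over all genes the same settings gave 7900 to 8494 and 7388 to 8008 calls. Rescaled to the sum over all genes, Adamts5 between control chambers reversed to 0.16 (limma adjusted p = 0.304) and Adamts1 between idKO chambers to 0.20 (0.142). With the longest transcript as length, an alternative chosen after the data were seen, the Timp4 share was 1.502% and 1.39% in control and idKO atria, and 11.2% and 10.7% in ventricles. Over all genes in ventricles, 70 higher and 197 lower became 154 and 108 with values rescaled to the sum over all genes, 195 and 342 with DESeq2, 19 and 70 with a prior without a trend and 35 and 122 without idKO ventricle replicate 2, and the total ranged from 132 to 359 with 1 library left out. Over named members and settings in ventricles, 394 of 400 results kept their side of the threshold, 3 lost a call and 3 gained one. Depth limits the members under about 30 reads a library, among them Adamts8 in ventricles.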
